A study of Mus musculus with 24 samples.

Results

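The genes described here encode the aminoacyl-tRNA synthetases, the enzymes that load each tRNA with its amino acid. Members were all genes named by 1 capital letter followed by ars or ars2, with Eprs, Farsa and Farsb added. This name rule gave 37 of the 13162 genes listed in any deposited table, and all 37 were listed in each of the 5 tables. Names ending in 2 (17 genes) mark mitochondrial enzymes, and the other 20 are cytosolic or shared between the compartments. RNA sequencing was done on interscapular brown fat, the heat-producing pad between the shoulder blades, of male C57BL/6J mice aged 10 to 12 weeks and killed at ZT10, the tenth hour of the light phase. Control mice carried floxed Hdac3 alleles, and KO mice carried the same alleles with Ucp1-cre, a recombinase driven by the promoter of the brown adipocyte gene Ucp1. Other cells of the pad keep Hdac3, which encodes a histone deacetylase of corepressor complexes. Mice of both genotypes stayed at 22 °C, or spent 24 h at 15 °C and then 24 h (1 day) or 7 d back at 22 °C, giving 6 groups of 4 libraries. The study asks what a short cold exposure leaves behind in brown fat with and without Hdac3.

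A synthetase joins an amino acid to its tRNA with energy from ATP, and each amino acid needs its own enzyme. Cytosolic enzymes serve the ribosomes that read nuclear messages, while a separate nuclear-encoded set is imported into mitochondria to serve the few proteins encoded by mitochondrial DNA, which are subunits of the respiratory chain and ATP synthase. Gars and Kars each supply both compartments from 1 gene. Mitochondria lack an enzyme for glutamine and instead convert glutamate already loaded by Ears2, using an amidotransferase built from Qrsl1, Gatb and Gatc. In mammalian cells the transcription factor ATF4 raises many cytosolic synthetase genes when amino acids run short or protein folding is disturbed. Brown fat is rich in mitochondria, whose amount and protein make-up follow the demand for heat.

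The authors deposited, for each of 5 pairs of groups, a log2 fold change, an adjusted p-value (false discovery rate) from edgeR, and the mean of each group, read here as RPKM (reads per kilobase of gene, scaled to sequencing depth). No value per library was used, so replicate error enters only through the authors' adjusted p. A call means that this p was under 0.05, and an SE given with a log2 fold change was rebuilt from the deposited p. Library totals recovered from the means ran from 4.64e+06 to 1.25e+07 reads, both extremes in the Control group at 7 d. The thinnest member, Wars2 in the KO at 22 °C, rested on about 49.6 reads per library. The RPKM means lack the authors' normalization factors. Over all genes, the log2 ratio of means minus the deposited log2 fold change had a median of -0.24 for KO against Control at 22 °C and -0.14 at 24 h, and within 0.1 for the other tables, and folds below are the deposited ones. Hdac3 was 2.59-fold lower in the KO at 22 °C (deposited adjusted p = 9.9e-21), with means of 26.1 and 8.57 RPKM, and was lower in the KO at 24 h and 7 d as well. All 10 brown adipocyte markers were read in every group. In the deposited table at 22 °C, 4 were higher and 4 lower in the KO, among the latter Ucp1 with means of 1607 and 32.8 RPKM. That table had 16.3% of its 12710 genes higher and 34.3% called in either direction. Summed over all 10 markers, the KO level there was the larger, 18963 against 13477 RPKM. After recovery 5 markers were higher and 2 lower in Control, and 6 higher and 3 lower in KO (median deposited log2 fold change 0.27 and 1.45). The shares over all listed genes were 13.1% higher and 8.67% lower for Control recovery, and 22.1% and 19.8% for KO recovery.

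In unexposed Control fat the synthetases spanned a wide range of levels. Iars2, which loads isoleucine in mitochondria, had the highest deposited mean, 54.5 RPKM, ahead of Gars (glycine, both compartments) at 42.6, Dars (aspartate) at 36.9, Eprs (a fused enzyme for glutamate and proline) at 33.9 and Fars2 (mitochondrial phenylalanine) at 29.4. Wars2, the mitochondrial tryptophan enzyme, was lowest at 2.1 RPKM, followed by Pars2 (mitochondrial proline) at 2.85 and Cars (cysteine) at 4.05. The median deposited mean was 17.3 RPKM for cytosolic and 7.95 for mitochondrial members. In the KO at 22 °C these medians were 14.3 and 4.21 RPKM, so the mitochondrial set was the lower of the pair in both genotypes. Neighbours in this order cannot be separated, since the tables give no spread between libraries. Reads from overlapping genes may also enter a level, and for genes on opposite strands the sources used here do not state strand handling. In the GENCODE M21 annotation, other genes overlapped 22.9% of the exon bases of Iars2 (Rab3gap2, opposite strand) and 14.3% of Aars (Exosc6, same strand). That annotation is of another genome build than the deposited values. Its exon bases are not the deposited gene lengths, 3540 bases for Iars2 and 3715 for Aars. The shares therefore name neighbours and do not measure stray reads.

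**Figure D1:**
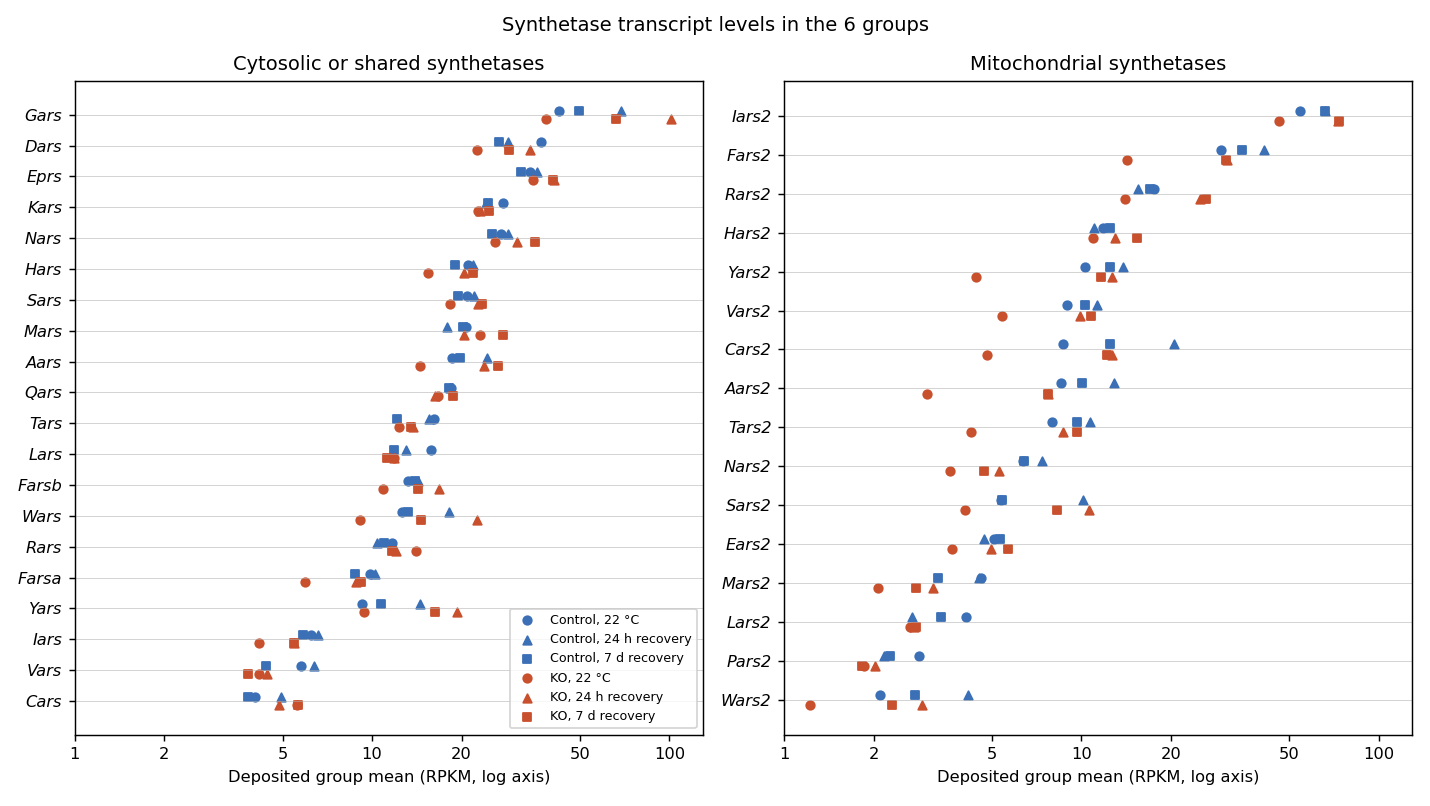
Deposited group mean of each synthetase but 1 mitochondrial member in RPKM (log axis), with cytosolic or shared genes on the left and mitochondrial genes on the right, Control in blue and KO in red, and marker shape for 22 °C, 24 h or 7 d of recovery. KO circles at 22 °C lie left of the other symbols for many mitochondrial genes, as for Aars2 at 3.03 RPKM, and Gars reaches 102 RPKM in the KO at 24 h.

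At 22 °C, loss of Hdac3 went with lower mitochondrial synthetase transcripts and had no common direction among cytosolic ones. Of 17 mitochondrial members, 0 were higher and 10 lower in the KO in the deposited table, where 34.3% of the 12710 listed genes were called, 16.3% higher and the other 2282 genes lower. Cytosolic members had 3 higher and 2 lower of 20, and so were called no more often than all listed genes. The median deposited log2 fold change was -0.56 for mitochondrial members, -0.05 for cytosolic members and -0.01 for all listed genes.

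Aars2, which loads alanine, had a deposited mean of 8.56 RPKM in Control and 3.03 in the knockout at 22 °C. It was the most reduced member, 2.40-fold lower, with a deposited log2 fold change of -1.27 (SE 0.17, adjusted p = 1.5e-12). Yars2, for tyrosine, averaged 10.3 and 4.41 RPKM and was 1.99-fold lower (deposited adjusted p = 6.3e-08). Mars2, for methionine, averaged 4.61 and 2.07 RPKM and was 1.88-fold lower as deposited (adjusted p = 5.4e-06). Fars2 averaged 29.4 and 14.3 RPKM and was 1.75-fold lower (deposited adjusted p = 1.8e-08). Tars2, for threonine, was 1.59-fold lower as deposited (adjusted p = 5.2e-05). Cars2, Nars2, Wars2 and Vars2 were lower by 1.40-fold to 1.53-fold in the deposited table. Mitochondrial members without a call included Iars2 at a deposited log2 fold change of -0.01, Rars2 at -0.10 and Hars2 at 0.12.

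Among cytosolic genes the KO at 22 °C was higher for Cars, Rars and Mars and lower for Farsa and Dars. The deposited mean of Cars was 4.05 RPKM in Control and 5.58 in KO, 1.64-fold higher after normalization (adjusted p = 2.6e-04). Rars (arginine) and Mars (methionine), both subunits of the large complex that holds several cytosolic synthetases together, were 1.44-fold and 1.32-fold higher as deposited (adjusted p = 0.0034 and 0.0079). Farsa, the alpha subunit of the phenylalanine enzyme, was 1.40-fold lower (deposited adjusted p = 0.0069), while its beta subunit Farsb had a deposited log2 fold change of -0.05 without a call. Dars went from 36.9 to 22.5 RPKM and was 1.38-fold lower (deposited adjusted p = 0.0024). For cysteine and methionine the compartments thus moved apart, with Cars and Mars higher and Cars2 and Mars2 lower in the same KO libraries. Across the 14 amino acids that have a gene for each compartment under this naming, the deposited log2 fold change was larger for the cytosolic gene in 12, and the median of cytosolic minus mitochondrial over all 14 was 0.42.

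**Figure D2:**
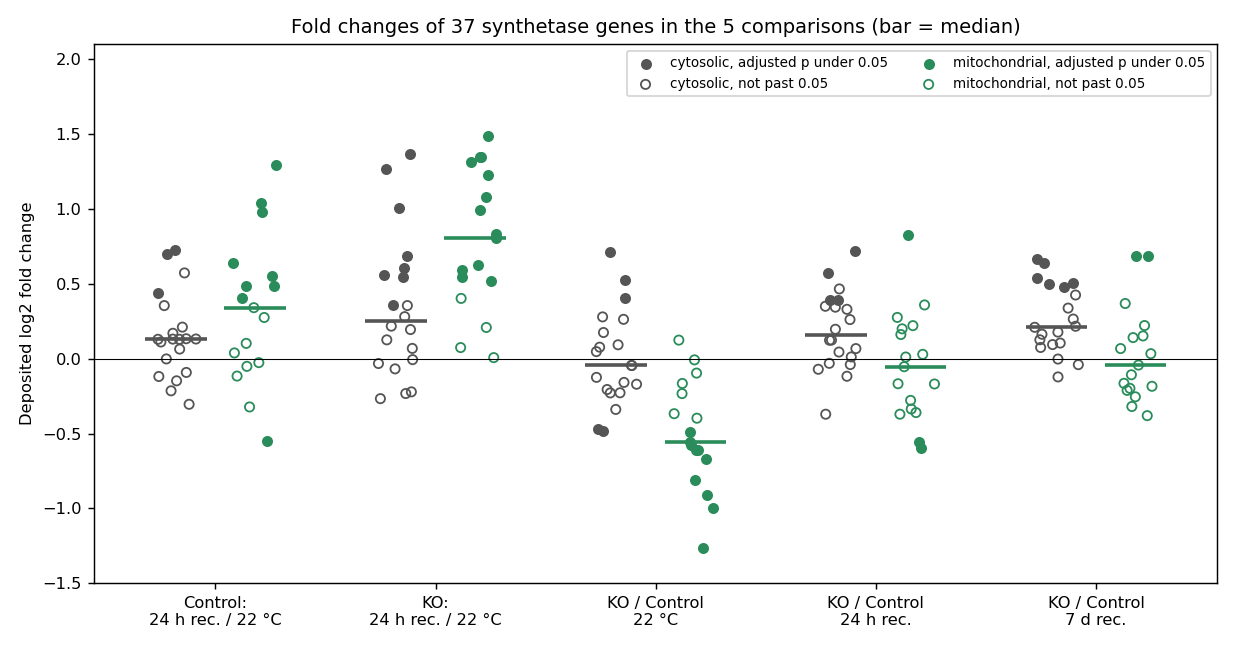
Deposited log2 fold change (vertical axis) of each synthetase in the 5 comparisons (horizontal axis), grey for cytosolic or shared and green for mitochondrial genes, filled where the authors' adjusted p was under 0.05, with a bar at each median. The green bars stand at 0.34 and 0.81 for recovery in Control and KO, at -0.56 for KO against Control at 22 °C, and at -0.05 and -0.04 after 24 h and 7 d.

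Several partner genes of mitochondrial translation were lower in the same comparison, where 16.3% of all listed genes were higher and 34.3% were called in either direction. Of the amidotransferase subunits that make glutaminyl-tRNA in mitochondria, Qrsl1 was 3.23-fold lower (deposited adjusted p = 6.2e-17) and Gatb 1.99-fold lower (adjusted p = 2.3e-11) in the KO at 22 °C, while Gatc had a deposited log2 fold change of -0.27 without a call. Of 13 mitochondrial translation factors, 0 were higher and 10 lower, with a median deposited log2 fold change of -0.73. The list of mitochondrial tRNA processing and modification genes had 1 of 13 higher and 2 lower, with a median of -0.11. Lrpprc, an RNA-binding protein that stabilizes mitochondrial messages, was 2.45-fold lower and the elongation factor genes Gfm1 and Tufm 2.37-fold and 2.25-fold lower as deposited. The ATF4 amino acid response list had 12 of 21 members higher and 4 lower (median deposited log2 fold change 0.71), among them Chac1, a glutathione-degrading enzyme, 9.06-fold higher and the translation repressor gene Eif4ebp1 2.27-fold higher. Its member Shmt2, a mitochondrial serine enzyme, was 2.20-fold lower in the deposited table. Atf4 itself, named after its values were seen, averaged 50.1 and 68.3 RPKM and was 1.63-fold higher (deposited adjusted p = 0.0071). At 22 °C the macrophage markers summed to 89.4 RPKM in Control fat and 122 in KO fat, with 5 of 10 higher, 0 lower and none at 0 in the deposited tables. Their part in these values was not tested, and in whole tissue fewer cells of a type and less RNA per cell cannot be told apart.

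After cold and 24 h of recovery, Control fat had higher levels of 8 mitochondrial and 3 cytosolic synthetases than Control fat at 22 °C. Mitochondrial members had 8 of 17 higher and 1 lower in the deposited table, where 13.1% of 12830 listed genes were higher and 8.67% lower. Cytosolic members had 3 of 20 higher and 0 lower, so their share of higher calls was close to that of all listed genes. Median deposited log2 fold changes were 0.34 for mitochondrial members, 0.13 for cytosolic members and 0.01 for all listed genes.

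Cars2 rose from 8.65 to 20.4 RPKM in Control, 2.45-fold in the deposited table (log2 1.30, SE 0.18, adjusted p = 8.2e-11). Wars2 rose 2.05-fold (deposited adjusted p = 1.3e-07), from 2.1 to 4.15 RPKM. Sars2, the mitochondrial serine enzyme, rose 1.97-fold (deposited adjusted p = 1.8e-08), from 5.38 to 10.1 RPKM. These 3 were the largest changes of the family in Control. Aars2 and Fars2 rose 1.56-fold and 1.46-fold, and Tars2, Yars2 and Vars2 between 1.32-fold and 1.40-fold, as deposited. Lars2, for leucine, was 1.47-fold lower (deposited adjusted p = 0.041) with means of 4.08 and 2.68 RPKM, and was the 1 member that fell.

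The cytosolic genes that rose in Control were Gars, Yars and Aars. Gars went from 42.6 to 68.5 RPKM, 1.65-fold higher in the deposited table (log2 0.73, SE 0.17, adjusted p = 3.4e-04). Yars, for tyrosine, went from 9.23 to 14.5 RPKM and was 1.62-fold higher (deposited adjusted p = 3.3e-04). Aars, for alanine, went from 18.5 to 24.3 RPKM and was 1.35-fold higher (deposited adjusted p = 0.027, which misses a threshold of 0.01). Wars, for tryptophan, had means of 12.6 and 18.2 RPKM with an adjusted p of 0.059 in the deposited table. The other 16 cytosolic members had deposited log2 fold changes between -0.30 (Dars) and 0.35 (Cars), without a call.

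Macrophage and dividing-cell markers were higher in the same libraries. Of 10 macrophage markers, 8 were higher in the deposited Control recovery table and 0 lower, with a summed level of 89.4 RPKM at 22 °C and 247 at 24 h, and 6 of 7 listed proliferation markers were higher. Skeletal muscle markers summed to 167 and 283 RPKM, with 0 of 13 called. No marker of these lists was at 0, and their part in the synthetase values was not tested. In the KO recovery table macrophage markers had 0 of 10 higher and 1 lower, with sums of 122 and 141 RPKM. Proliferation markers were higher there too, 5 of 6 listed, with sums of 2.77 and 9.54 RPKM, and fibroblast markers had 0 of 8 higher and 3 lower, with sums of 310 and 239 RPKM. Of all listed genes, 13.1% were higher and 8.67% lower in the Control recovery table, and 22.1% and 19.8% in the KO recovery table. The part of these markers in the KO synthetase values was not tested.

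A short element that few promoters hold was found for 5 cytosolic members, with and without a recovery call in Control. RefSeq promoters of build GRCm38.p6, 250 bases before to 50 after the gene start, were matched for 27 of the 37 members, 13 cytosolic and 14 mitochondrial. They were searched on both strands for TGATGNAAN, the C/EBP-ATF element bound by ATF4 with C/EBP partners. It was present for 5 of 13 cytosolic members (Aars, Gars, Iars, Tars and Yars) and 0 of 14 mitochondrial members, against 4.50% of 27025 genes and 3.95% of 32851 promoters. No match overlapped one of the other motifs searched. Of those, the ETS and GABPA motif was also present for 5 of 13 cytosolic members, against 9.93% of all genes. The windows below surround the gene start, run 5′ to 3′ on the strand of the gene, and are shown because they hold the element, whose bases are in capitals. They lie at chr6:55037876-55038025 (plus strand), chr4:129189778-129189927 (plus), chr8:111033717-111033866 (plus), chr15:11399634-11399783 (minus) and chr13:49682005-49682154 (plus).
Gars: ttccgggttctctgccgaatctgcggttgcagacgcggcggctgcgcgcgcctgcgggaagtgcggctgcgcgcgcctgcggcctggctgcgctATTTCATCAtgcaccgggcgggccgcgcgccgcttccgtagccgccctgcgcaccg
Yars: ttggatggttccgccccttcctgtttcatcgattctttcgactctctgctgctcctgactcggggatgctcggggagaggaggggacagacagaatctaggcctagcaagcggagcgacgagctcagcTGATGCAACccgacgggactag
Aars: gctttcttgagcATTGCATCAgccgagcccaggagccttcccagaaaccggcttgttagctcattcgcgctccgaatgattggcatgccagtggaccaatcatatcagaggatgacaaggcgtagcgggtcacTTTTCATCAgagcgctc
Tars: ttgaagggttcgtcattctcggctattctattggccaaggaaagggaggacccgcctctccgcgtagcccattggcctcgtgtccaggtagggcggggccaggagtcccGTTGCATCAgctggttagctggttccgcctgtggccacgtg
Iars: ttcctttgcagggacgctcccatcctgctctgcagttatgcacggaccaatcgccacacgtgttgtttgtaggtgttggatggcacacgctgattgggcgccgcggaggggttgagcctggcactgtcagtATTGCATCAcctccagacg

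Aars held a copy at -113 and another at 9 bases from the start, Gars at -31, Tars at -16, Iars at 7 and Yars at 4, each read in reverse except in Yars. Recovery calls in Control fell on Gars, Yars and Aars, while Tars and Iars had deposited log2 fold changes of -0.0019 and 0.13 there, so the element was present in genes with and without a call. Farsa and Farsb, which were higher after recovery in the KO, had searched promoters without the element. A match describes letters in a window and shows no binding.

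In KO fat, 13 mitochondrial and 8 cytosolic synthetases were higher after 24 h of recovery than at 22 °C. Mitochondrial members had 13 of 17 higher and 0 lower, and cytosolic members 8 of 20 higher and 0 lower, in a deposited table where 22.1% of 12577 listed genes were higher and 19.8% lower. Median deposited log2 fold changes were 0.81 for mitochondrial members, 0.25 for cytosolic members and -0.02 for all listed genes. This comparison shares the KO libraries at 22 °C with the comparison of genotypes at 22 °C, so the low starting levels enter both.

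Yars2 rose most, from 4.41 to 12.7 RPKM, 2.81-fold in the deposited table (log2 1.49, SE 0.17, adjusted p = 8.1e-18). Sars2 rose from 4.06 to 10.6 RPKM, 2.54-fold (deposited adjusted p = 5.1e-17). Cars2 rose 2.54-fold as well (deposited adjusted p = 6.3e-12), from 4.83 to 12.6 RPKM. Aars2 rose 2.48-fold, Wars2 2.34-fold and Fars2 2.12-fold as deposited. Tars2, Vars2, Rars2 (arginine), Iars2, Mars2 and Nars2 (asparagine) rose by 1.43-fold to 1.99-fold in the deposited table. Ears2, Hars2, Pars2 and Lars2 were not called, and the deposited log2 fold change of Lars2 was 0.0069.

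Gars had means of 38.5 RPKM at 22 °C and 102 at 24 h in the KO, a deposited rise of 2.58-fold (log2 1.37, SE 0.17, adjusted p = 2.3e-14). The 24 h value was the highest group mean of any synthetase. Wars rose from 9.11 to 22.6 RPKM, 2.40-fold (deposited adjusted p = 3.9e-07), and Yars from 9.39 to 19.3 RPKM, 2.01-fold (deposited adjusted p = 2.7e-09). Aars rose 1.61-fold, Farsb 1.52-fold, Dars 1.47-fold, Farsa 1.46-fold and Hars (histidine) 1.28-fold as deposited, so both subunits of the phenylalanine enzyme rose. Subunits of the multi-synthetase complex other than Dars had no call here, with deposited log2 fold changes from -0.27 (Rars) to 0.35 (Iars). Its scaffold gene Eef1e1 was 1.53-fold higher (deposited adjusted p = 0.015), while Aimp1 and Aimp2 had log2 fold changes of 0.06 and -0.16.

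Translation factors and the amidotransferase rose with the mitochondrial synthetases in the KO. Of 13 mitochondrial translation factors 11 were higher and 0 lower (median deposited log2 fold change 1.26), against 5 higher and 1 lower in Control (median 0.36). In the KO Gfm1 rose 5.71-fold, Taco1, an activator of cytochrome oxidase translation, 4.03-fold and Lrpprc 3.79-fold as deposited, and Tufm rose 3.33-fold. Qrsl1 rose 4.07-fold and Gatb 1.32-fold in the KO table, and Gatc 1.54-fold, whereas all 3 had no call in Control. The ATF4 list had 4 of 23 members higher and 4 lower in the KO as deposited, a share no larger than the 22.1% and 19.8% of all listed genes. Mthfd2, a mitochondrial folate enzyme, was 7.91-fold higher and Chac1 6.95-fold lower. In Control 7 of 22 were higher and 3 lower, with the serine synthesis gene Psph 2.43-fold higher and Phgdh of the same pathway 3.88-fold lower in the deposited table. Of all listed genes, 13.1% were higher and 8.67% lower with recovery in Control. Atf4 averaged 50.1 and 48.5 RPKM in Control (deposited adjusted p = 0.997), and 68.3 and 53.0 in KO (adjusted p = 0.14).

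**Figure D3:**
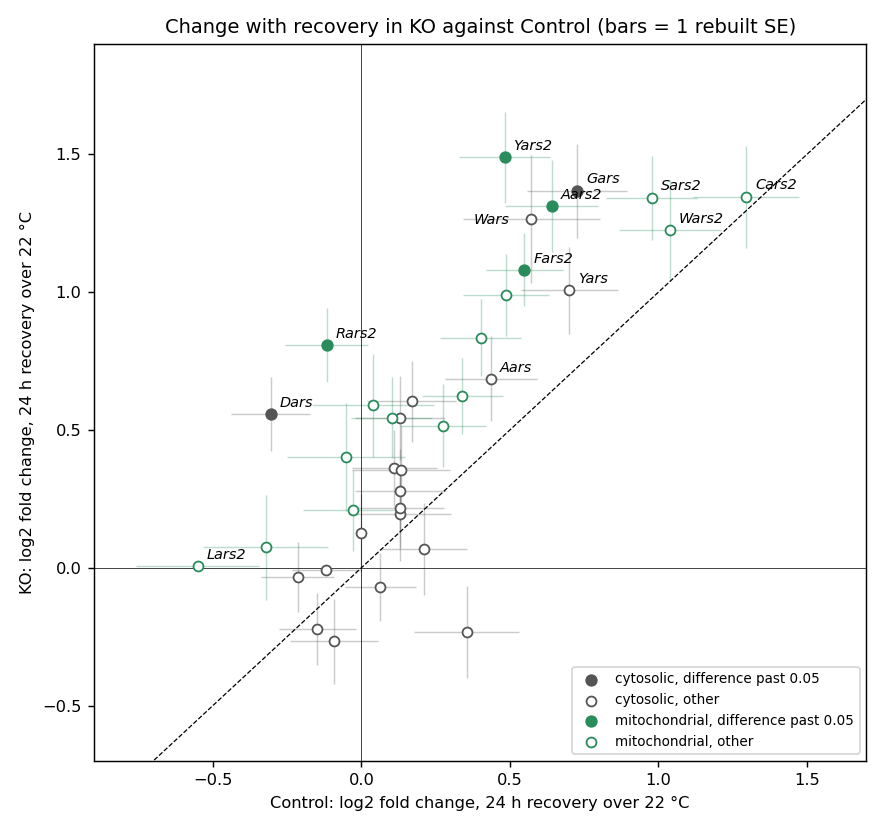
Deposited log2 fold change from 22 °C to 24 h of recovery in Control (horizontal axis) and KO (vertical axis) for each synthetase, with bars of 1 SE rebuilt from the deposited p (none where p was over 0.9) and a dashed line of equality. Filled points mark the 6 genes whose difference passed an adjusted p of 0.05, with Yars2 at 0.48 and 1.49 and Cars2 near the line at 1.30 and 1.35.

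Whether recovery differed between genotypes was tested by subtracting 1 deposited log2 fold change from the other, since these tables share no library. The rise was larger in the KO for 4 of 16 testable mitochondrial and 2 of 18 testable cytosolic members and smaller for none, where 10.6% of 10923 genes were higher and 6.96% lower. The cytosolic share of larger rises was thus close to that of all genes.
Yars2 rose by 1.01 more on the log2 scale in the KO (SE 0.23, adjusted p = 1.5e-04). For Rars2, recovery took the deposited mean from 17.6 to 15.6 RPKM in Control and from 14.01 to 25.2 in KO, a difference of 0.92 (SE 0.19, adjusted p = 4.1e-05). Dars went from 36.9 to 28.6 RPKM in Control and from 22.5 to 33.9 in KO, a difference of 0.86 (SE 0.19, adjusted p = 9.4e-05). The lower values of Rars2 and Dars after recovery in Control were not called. Aars2, Fars2 and Gars differed by 0.67, 0.53 and 0.64 (adjusted p = 0.024, 0.027 and 0.044). Cars2 differed by 0.05 (SE 0.26), so its rise could not be told apart between genotypes. In simulated data the test found 57 of 97 differences of 1 log2 unit and 5 of 92 of 0.5. Far fewer genes were changed there than were called here, which makes the adjustment stricter. Those rates therefore do not measure how many differences among these members were missed, and an uncalled difference may still be present.

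After 24 h of recovery 3 mitochondrial and 4 cytosolic members differed between the genotypes, a share close to that of all listed genes (2342 of 12657 called). In the deposited table of KO against Control at 24 h, 1 of 17 mitochondrial members was higher and 2 lower, and 4 of 20 cytosolic members were higher and 0 lower, with 10.5% of 12657 listed genes higher and 7.96% lower. Rars2 was 1.78-fold higher in the KO (deposited log2 0.83, SE 0.13, adjusted p = 4.7e-08), with means of 15.6 and 25.2 RPKM. Aars2 was 1.51-fold lower (adjusted p = 0.0019), and Cars2 was 1.47-fold lower (adjusted p = 0.011), with means of 20.4 and 12.6 RPKM in the deposited table. Gars (1.65-fold, adjusted p = 3.4e-04), Yars (1.48-fold), Dars and Farsb (both 1.31-fold) were higher in the KO as deposited. Median deposited log2 fold changes were -0.05 for mitochondrial members, 0.16 for cytosolic members and -0.05 for all genes. Macrophage markers summed to 247 RPKM in Control and 141 in KO at 24 h, with 0 of 10 called, and fibroblast markers to 409 and 239, with 0 of 8 higher and 4 lower. Their part in these values was not tested. The ATF4 list had 3 of 23 members higher and 2 lower, with Eif4ebp1 1.94-fold and the amino acid transporter subunit gene Slc3a2 1.75-fold higher in the KO.

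After 7 d, 6 cytosolic and 2 mitochondrial members were higher in the KO and none was lower. The deposited table of KO against Control at 7 d had 6 of 20 cytosolic members higher and 0 lower, and 2 of 17 mitochondrial members higher and 0 lower, with 9.18% of 12467 listed genes higher and 6.14% lower. The mitochondrial share of higher calls was thus close to that of all listed genes. Yars averaged 10.7 RPKM in Control and 16.3 in KO, 1.59-fold higher (deposited log2 0.67, SE 0.16, adjusted p = 6.6e-04). Cars averaged 3.82 and 5.63 RPKM and was 1.55-fold higher (deposited adjusted p = 0.0040). Nars, for asparagine, was 1.46-fold higher, Mars 1.42-fold, Aars 1.41-fold and Gars 1.40-fold in the deposited table (adjusted p = 0.0027, 0.0015, 0.012 and 0.034). Rars2 averaged 17.1 and 26.3 RPKM and was 1.61-fold higher (deposited adjusted p = 1.5e-05), and Sars2 averaged 5.42 and 8.26 RPKM and was 1.60-fold higher (deposited adjusted p = 3.7e-04). Median deposited log2 fold changes were 0.21 for cytosolic members, -0.04 for mitochondrial members and -0.01 for all genes. In the same table the ATF4 list had 10 of 22 members higher and 1 lower, with Slc3a2 3.16-fold, the amino acid transporter gene Slc38a2 2.05-fold and Atf4 1.96-fold higher in the KO.

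The effect of Hdac3 loss at 7 d differed from that at 22 °C for 10 synthetases, all toward higher levels in the KO. Of the testable members, 7 of 16 mitochondrial and 3 of 19 cytosolic ones passed an adjusted p of 0.05, where 9.53% of 10591 genes were higher and 5.29% lower. For Yars2 the deposited log2 fold change of KO over Control was -0.996 at 22 °C and -0.04 at 7 d, a difference of 0.95 (SE 0.26, adjusted p = 0.0031). For Aars2 it was -1.27 and -0.32, a difference of 0.95 (SE 0.23, adjusted p = 8.3e-04). Sars2, Rars2, Tars2, Fars2 and Vars2 differed by 0.63 to 0.85, and the cytosolic Dars, Aars and Farsa by 0.61 to 0.65. Between 24 h and 7 d the KO effect differed for 0 of 34 testable members at an adjusted p of 0.05 by this test on rebuilt errors (3 at an unadjusted p under 0.05), where 0.201% of 10425 genes were called.

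No deposited table compares 7 d with 22 °C, so the levels are described by ratios of group means without a test, centred on the median of the 11917 genes in all tables. In Control the median log2 ratio of 7 d over 22 °C was 0.02 for cytosolic and 0.21 for mitochondrial members. In KO it was 0.31 and 0.86. The mitochondrial median of 7 d over 24 h was -0.08 in Control and -0.02 in KO. In the KO 16 of 17 mitochondrial members had a centred ratio of 7 d over 22 °C above 0. Cars2 in Control, after 20.4 RPKM at 24 h, was at 12.4 at 7 d, and Sars2 went from 10.1 back to 5.42 RPKM against 5.38 at 22 °C. In the KO, Cars2 had means of 12.6 and 12.2 RPKM and Fars2 30.9 and 30.8 at 24 h and 7 d, while Sars2 had 10.6 and 8.26 and Wars2 2.90 and 2.3. At 7 d Gars averaged 49.7 RPKM in Control and 66.4 in KO, below its 24 h means, and Wars 13.2 and 14.6 RPKM, also below. Skeletal muscle markers summed to 934 RPKM in Control and 778 in KO at 7 d, against 167 and 162 at 22 °C, with 0 of 13 listed markers called between the genotypes and none at 0. Of 12467 listed genes, 9.18% were higher and 6.14% lower between the genotypes at 7 d. The part of the muscle markers in the 7 d levels was not tested.

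**Figure D4:**
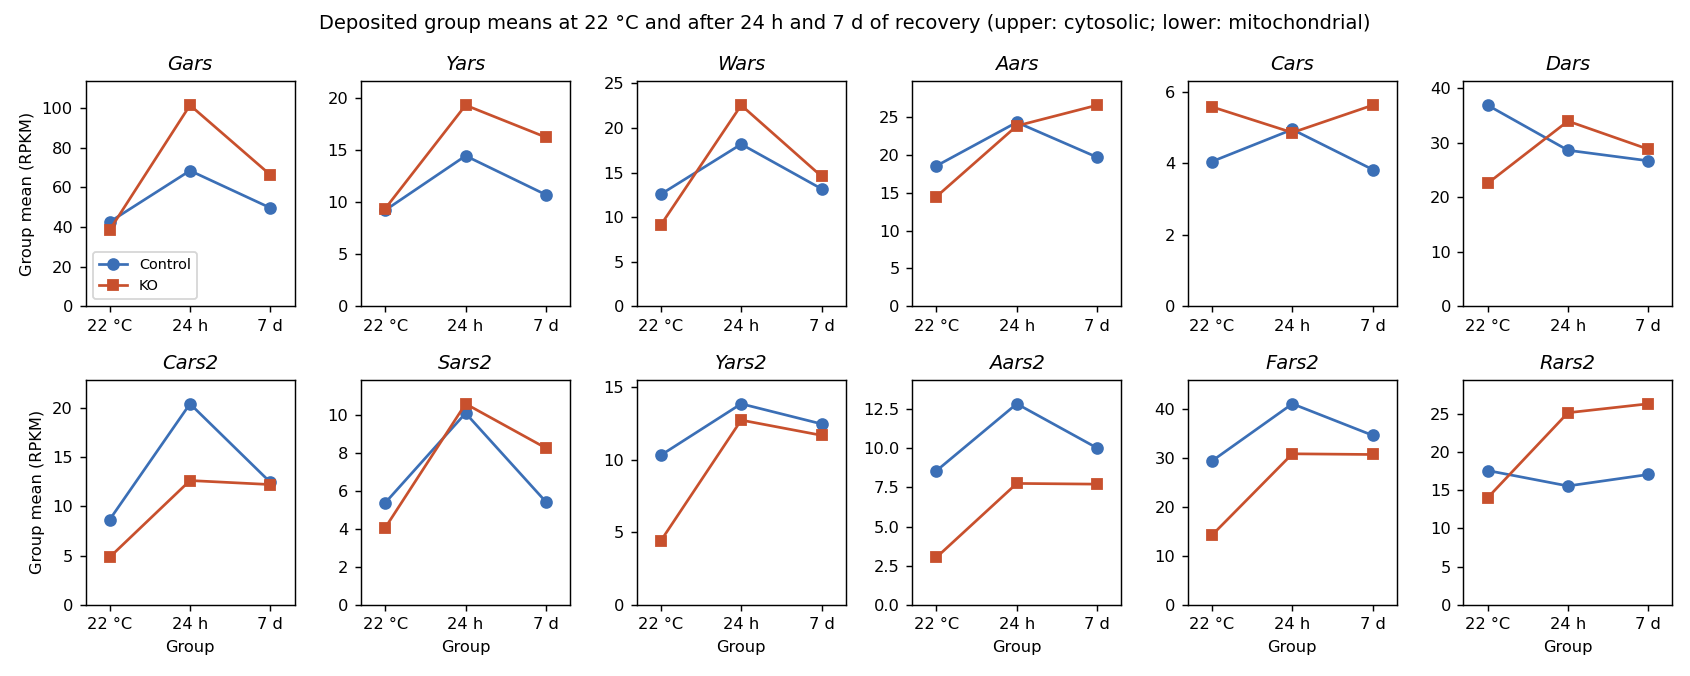
Deposited group means in RPKM (vertical axes from 0) at 22 °C and after 24 h and 7 d of recovery, Control in blue circles and KO in red squares, for 6 cytosolic (upper row) and 6 mitochondrial (lower row) synthetases. Gars, Yars and Wars peak at 24 h in both genotypes, while the KO curves of Aars2, Fars2 and Rars2 are level between 24 h and 7 d.

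In all, 26 of the 37 synthetases were called in at least 1 deposited table and 11 in none. The uncalled genes were Eprs, Iars, Kars, Lars, Qars, Sars, Tars and Vars of the cytosolic set and Ears2, Hars2 and Pars2 of the mitochondrial set. Kars, which like Gars serves both compartments, had deposited log2 fold changes between -0.12 and 0.07 over the 5 tables. Qars, for glutamine, had values between -0.07 and 0.10.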

How the data were processed

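Processed tables of RNA sequencing of 24 libraries were used. Per the labels' protocols, ribosomal RNA was removed and TruSeq libraries were made. Per the submitters' processing notes, STAR, featureCounts and edgeR were used with mouse build mm9, while versions, settings and strand handling are not stated. Each of the 5 deposited tables gives the authors' log2 fold change and mean log2 CPM, their p-value and false discovery rate, gene length and 2 group means. No header names the unit of the deposited means, which were read as RPKM, since the mean CPM rebuilt from them lay a nearly constant -0.51 log2 (quartiles -0.54 and -0.50) from the deposited average. Each table lists genes with at least 0.5 RPKM in the higher group. The labels speak of biological replicates without tying libraries to mice, so each p reflects variation among libraries only.

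The authors' adjusted p at 0.05 is the main result, and no count test was run on the group means. Differences between tables that share no library were tested with Python 3.11.15 and scipy 1.17.1. Each SE was the log2 fold change over the normal score of its p (p up to 0.9), squared SEs were added, and the Benjamini-Hochberg adjustment ran over all genes. The test was tried on simulated data, where it called 0 differences in the wrong direction. Those data were drawn with the rebuilt SEs and normal noise, so the trial cannot show whether the rebuilt SEs are right. Totals per library came from genes with 1 read in a group, whose means are set by the total alone. Named are the members past the threshold with the largest fold changes, and up to 4 genes per list with the smallest p. Members and lists were chosen with earlier results of these data known, and some genes that the rule names are given by count or range. Mars was matched to RefSeq through its synonym Mars1. Counts and medians cover all members, but 1 member's own values are not reported here. Alternatives were other thresholds, adjustment sets, filters, scalings and pseudocounts.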

Additional observations from a re-analysis of the deposited data

Results flagged for a closer look

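A total of 16 differences between conditions were flagged because the test of the difference itself passed an adjusted p of 0.05, each on the log2 scale. For the change with 24 h of recovery in KO minus that in Control they were 1.01 for Yars2, 0.92 for Rars2, 0.86 for Dars, 0.67 for Aars2, 0.64 for Gars and 0.53 for Fars2. For the effect of Hdac3 loss at 7 d minus that at 22 °C they were 0.95 for Yars2, 0.95 for Aars2, 0.85 for Sars2, 0.78 for Rars2, 0.74 for Tars2, 0.70 for Fars2, 0.65 for Dars, 0.63 for Vars2, 0.63 for Aars and 0.61 for Farsa. Both sets share the libraries at 22 °C of both genotypes, so a gene flagged in each is not independent evidence. Dars and Rars2 were the members whose deposited fold changes with recovery had opposite signs in the genotypes and whose difference passed the threshold. Their lower values in Control were not called (deposited adjusted p = 0.087 for Dars and 0.63 for Rars2).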

How the results depend on the processing

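Settings were changed for 26 summaries and 79 calls of single members. No single call changed direction under any setting run, though the threshold, adjustment and filter settings reuse the same fold change and could not reverse it. A threshold of 0.01 was missed by 17, among them Aars and Lars2 in Control recovery and Gars at 7 d. Adjusting again over the genes in all tables, a filter on low values, and t scores in place of normal scores ended no call of a member. For KO against Control at 24 h, 7 members were called at 0.05, 4 at 0.01 and 13 at 0.10. The authors' own status column (adjusted p under 0.01 and over 1.5-fold), an alternative chosen after seeing the data, marked 6 members for recovery in Control. Between the genotypes it marked 8 at 22 °C, 3 after 24 h and 4 after 7 d. Larger recovery in the KO held for 3 of 6 members at 0.01. Ratios of means without the normalization factors gave cytosolic medians of -0.28 (-0.27 with a pseudocount of 1) at 22 °C and 0.0082 (0.0095) at 24 h for KO against Control, and a mitochondrial median of -0.79 at 22 °C. With that pseudocount the mitochondrial ratio of 7 d over 22 °C in KO was 0.62. No paired analysis was possible because the tables hold no value per library, and leaving out replicates and DESeq2 were not run for that reason. Depth limits Wars2, Pars2 and Mars2, each with a lowest level of about 49.6 to 55.1 reads per library.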

Other observations

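Regulators of mitochondrial biogenesis had 7 of 10 listed members lower and 1 higher in the KO at 22 °C, in the deposited table. There 16.3% of 12710 listed genes were higher and 2282 genes lower. After KO recovery 8 of 10 were higher, where 22.1% of 12577 listed genes were higher and 19.8% lower. Esrrg, an orphan nuclear receptor, was 5.06-fold lower and the mitochondrial RNA polymerase gene Polrmt 2.46-fold lower at 22 °C. Genes of mitochondrial tRNA processing and modification had 7 of 13 higher and 1 lower after KO recovery, with Trmu, which thiolates mitochondrial tRNA, 2.32-fold higher as deposited. Cytosolic elongation factors had 1 of 7 higher and 1 lower in that table, shares no larger than those of all listed genes. There Eif5a, an elongation factor that carries the amino acid hypusine, was 1.76-fold higher and Eef2k, the kinase that slows elongation, 2.47-fold lower.

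Among genes related to synthetases but outside the name rule, Tarsl2, a second cytosolic threonine enzyme, differed from Tars. It was 2.41-fold lower in the KO at 22 °C (deposited adjusted p = 1.6e-11) and 1.58-fold lower at 7 d, where Tars had deposited log2 fold changes of -0.16 and 0.22 without a call. The list of synthetase-like editing factors that holds it had 1 of 4 higher and 1 lower in the KO at 22 °C, where 34.3% of all listed genes were called.

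Vascular endothelium markers had 1 of 8 higher and 0 lower in Control recovery, and fibroblast markers 3 of 8 higher and 0 lower, as deposited. Of all listed genes 13.1% were higher there and 8.67% lower. The promoter search for other motifs found the NRF1 motif for 3 of 13 cytosolic and 2 of 14 mitochondrial members (5.19% of all genes), and the ETS and GABPA motif CCGGAAG for 5 and 4 members (9.93% of all genes). TNAAGGTCA, the ERR motif, was in 0 of these 27 windows and in 1.43% of all genes.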
